A study of Mus musculus with 17 samples.

Results

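The genes described here make dolichol phosphate and use it to build, transfer and check the N-glycan. They were chosen by name, as 36 gene symbols of the pathway, and all 36 were present among the 19151 genes of the HFD table and the 24233 genes of the WD table. RNA was sequenced from liver and liver tumors of male C57BL6 mice fed a high-fat diet (HFD) or a high-fat, high-cholesterol Western-type diet (WD) for 16 weeks. N-LKO mice carry loxP-flanked NgBR (gene Nus1) and albumin-Cre, which is active in hepatocytes, and the authors describe the deletion as hepatocyte-specific. Which of the other liver cells kept the gene was not measured here. WT mice were the controls. Under HFD there were 4 samples each of WT and of N-LKO liver. Under WD there were 3 samples each of WT liver, of N-LKO liver and of tumor from N-LKO mice. There was no WT tumor, so every tumor also lacked hepatocyte NgBR. The labels do not say which tumor and liver came from the same mouse, and whether the WT mice carried the floxed allele without Cre is not stated in the sources used here.

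Dolichol is a long polyisoprenoid lipid of the ER membrane. NgBR and Dhdds together form the cis-prenyltransferase (cis-PTase) that makes its chain. Srd5a3 takes part in the reduction of the product to dolichol, Dolk phosphorylates dolichol, and Dolpp1 recycles the spent carrier. On dolichol phosphate the glycan is started by Dpagt1 and extended by the Alg13/Alg14 pair, Alg1, Alg2 and Alg11 on the cytosolic face. After flipping, it is completed in the lumen by Alg3, Alg9, Alg12, Alg6, Alg8 and Alg10b, which take sugars from dolichol-linked donors made by Alg5 and by the Dpm1, Dpm2 and Dpm3 complex. Mpdu1 is needed for the use of those donors. The oligosaccharyltransferase (OST), with Stt3a or Stt3b as its catalytic subunit, moves the finished glycan to the nascent protein, and Mogs, Ganab and Uggt1 trim it and test the folding of its carrier. In liver, which secretes most plasma glycoproteins, this pathway is in constant use.

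The 5′ flanks of the cis-PTase genes and of Dolk and Dolpp1 are shown because these genes share a function. Dolk and Dolpp1 were lower in tumors than in WT liver, as given below. Nus1 was lower there too, but it is the deleted gene, and shared regulation was not tested. They are RefSeq promoter sequences on GRCm38.p6, read 5′ to 3′ on the gene's strand, and capitals mark CCAAT or CCACG on either strand, the parts of the ER stress response element (ERSE) that NF-Y and ATF6 bind.
Nus1, chr10:52417397-52417546, plus strand: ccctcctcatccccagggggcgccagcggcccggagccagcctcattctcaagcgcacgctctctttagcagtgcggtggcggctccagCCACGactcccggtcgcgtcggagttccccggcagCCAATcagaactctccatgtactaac
Dhdds, chr4:134000919-134001032, minus strand: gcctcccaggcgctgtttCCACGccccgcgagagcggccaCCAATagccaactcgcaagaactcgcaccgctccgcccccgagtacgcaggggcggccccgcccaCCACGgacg
Dolk, chr2:30286355-30286504, minus strand: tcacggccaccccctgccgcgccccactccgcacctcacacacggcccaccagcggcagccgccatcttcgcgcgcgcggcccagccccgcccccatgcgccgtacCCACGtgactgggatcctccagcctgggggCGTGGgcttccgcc
Dolpp1, chr2:30392104-30392253, plus strand: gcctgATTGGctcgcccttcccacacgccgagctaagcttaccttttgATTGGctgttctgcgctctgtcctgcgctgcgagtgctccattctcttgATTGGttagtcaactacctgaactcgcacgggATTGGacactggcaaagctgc
Within these stretches Dolpp1 held 4 CCAAT boxes and 0 CCACG, Dolk held 0 CCAAT boxes and 2 CCACG, Nus1 held 1 of each, and Dhdds held 1 CCAAT box and 2 CCACG. The Dhdds stretch is shorter, as it ends 37 bases before the RefSeq start, where the annotated gene begins. A further Dhdds CCAAT lies past its end, 24 bases before that start, so the counts are not of equal stretches. None of the 4 held the whole ERSE, which is CCAAT, any 9 bases and CCACG, in these stretches. A window of 250 bases before to 50 after the start was given for 31 of the 36 genes. CCAAT stood in the windows of 18 of these 31 genes (58.1%) and in those of 41.1% of all 27025 genes with a window.
The ERSE on either strand stood in the window of Alg12 alone among the 31, against 0.137% of all genes, and is shown in capitals.
Alg12, chr15:88819509-88819548, minus strand: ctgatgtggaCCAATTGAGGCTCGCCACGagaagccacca
The related ERSE-II, which is ATTGG, any 1 base and CCACG, stood in the Krtcap2 window as ATTGGACCACG at chr3:89246490-89246500, and in 0.0444% of all genes. The UPRE core TGACGTGG stood in 0 of the 31 windows and in 0.714% of all genes. CRE, TGACGTCA, stood in the Alg13 window and in 2.03% of all genes. The Krtcap2 and Alg13 matches began 17 and 30 bases after the RefSeq start, not upstream of it. Krtcap2 had 2 windows, and its match lay in the later of these. All matches describe letters only, and binding was not measured.

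The libraries held 9096110 to 12215784 counts under HFD and 15494731 to 20200618 under WD. Levels are given as counts per 1e6 (CPM), scaled between the libraries of a table by TMM normalisation, which moved library sizes by factors of 0.942 to 1.05 under HFD and 0.806 to 1.15 under WD. WT liver WD replicate 2 had the lowest factor. The HFD and WD tables were deposited separately, so levels under the 2 diets are set side by side without a test. Marker genes of hepatocytes were abundant in every group, with summed levels of 45141 to 55322 CPM in WT liver, 31997 to 40007 CPM in N-LKO liver and 34082 to 60167 CPM in tumors under WD. The summed cholangiocyte markers were 17.2 to 69.5 CPM in WT liver, 115 to 151 CPM in N-LKO liver and 195 to 522 CPM in tumors under WD, and 20.4 to 38.4 CPM in WT liver and 54.4 to 99.3 CPM in N-LKO liver under HFD. Lymphocyte markers summed to 1.93 to 4.63 CPM under HFD and 3.25 to 12.9 CPM under WD. In bulk tissue, fewer cells of a type and less RNA per cell cannot be told apart.

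In WT liver the pathway was expressed over a wide range of levels. Per kb of exon, Magt1, an OST subunit with thioredoxin-like activity, had the highest mean under HFD at 24.6 ± 4.10 CPM per kb (SD, n = 4). The catalytic subunit Stt3b followed at 23.8 ± 3.98, the ribophorin Rpn1 at 23.1 ± 3.03 and glucosidase II alpha Ganab at 22.9 ± 2.18 CPM per kb. These neighbours did not differ beyond their spread. Nus1 ranked 7 in both tables, with 18.1 ± 1.21 CPM per kb under HFD (n = 4) and 19.4 ± 1.15 under WD (n = 3), whereas its partner Dhdds had 5.72 ± 0.461 and 6.27 ± 0.631 CPM per kb. The lowest levels per kb under HFD were 1.02 ± 0.135 CPM for Alg6, the glucosyltransferase that adds the first glucose, and 0.665 ± 0.0770 for Alg13. The Alg6 rank depends on its annotated exon length of 8.544 kb. In CPM not divided by length, WT liver under HFD had 7.82 to 10.4 for Alg6 and 2.55 to 4.96 for Alg8. Under WD the highest mean was that of Stt3b, 33.1 ± 1.96 CPM per kb, and Alg13 was again lowest at 0.743 ± 0.109. The ratio of the catalytic subunits Stt3b to Stt3a per kb was 3.24 ± 0.262 in WT liver under HFD and 3.55 ± 0.253 under WD. The ratio of Magt1 to Tusc3, alternative subunits of the Stt3b complex, was 13.4 ± 4.06 and 9.61 ± 4.32. The lengths joined all annotated exons, 4.221 kb for Stt3b and 8.948 kb for Stt3a, so the Stt3b to Stt3a ratio exceeds that of their CPM.

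**Figure D1:**
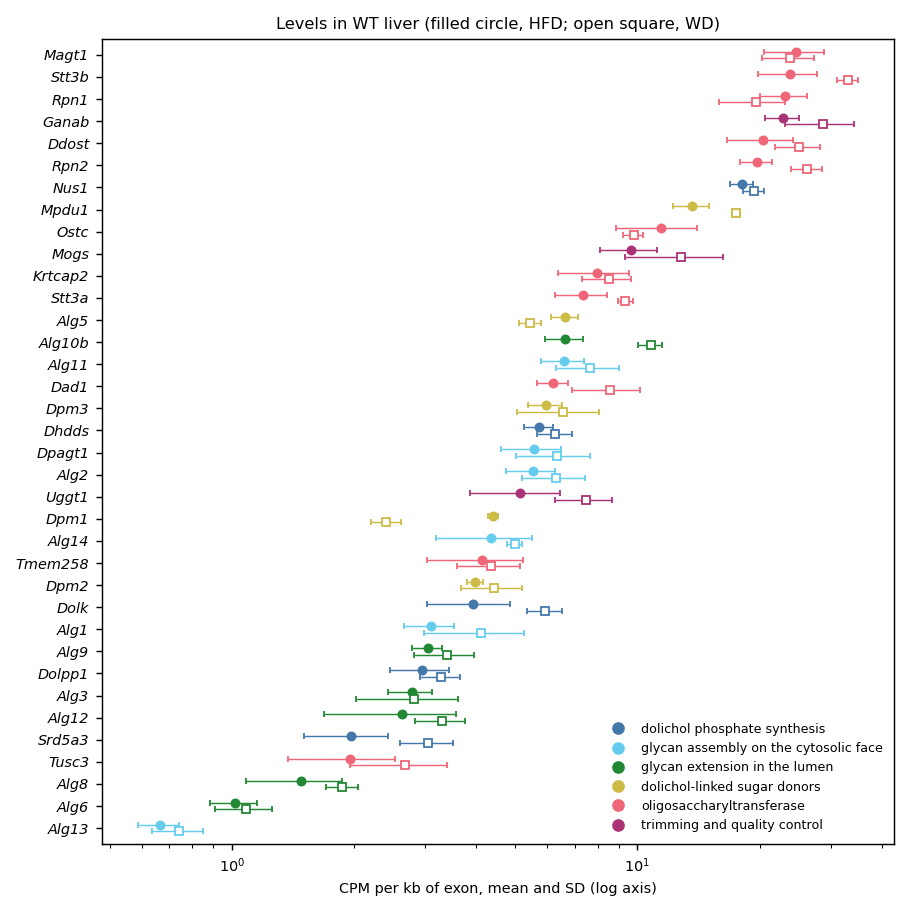
Mean level of each of the 36 genes in WT liver, in CPM per kb of exon on a log axis, with bars of 1 SD, filled circles for HFD (n = 4) and open squares for WD (n = 3), coloured by role. Per kb, Magt1, Stt3b, Rpn1, Rpn2, Ddost, Ganab and Nus1 lie at the high end, and Alg13 and Alg6 are lowest under both diets. The order depends on the annotated exon length.

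Nus1 was the targeted gene and was lower in N-LKO liver under HFD. Its level was 85.2, 96.0, 82.4 and 88.4 CPM in the WT livers and 37.5, 35.4, 37.9 and 29.3 CPM in the N-LKO livers. The groups did not overlap, and the N-LKO mean was 0.398-fold that of WT (log2 fold change −1.33, SE 0.10, edgeR quasi-likelihood adjusted p = 0.000194). Counts were summed over the whole gene, so transcripts that lacked the floxed exon but kept the rest would still be counted, and the RNA left in N-LKO liver cannot be divided between these and cells that keep the gene. Nus1 (ENSMUSG00000023068.16) lies at chr10:52417547-52440183 on the plus strand.

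Nus1 was the only one of the 36 genes that passed an adjusted p of 0.05 under HFD, as 1 lower and 0 higher, where 4.84% of all 13460 genes tested passed (2.29% lower and 2.56% higher). Before adjustment 7 genes had a p under 0.05, 2 higher and 5 lower, where 22.7% of all genes had one (11.2% higher and 11.5% lower), so the share of the pathway was near that of the background. The median log2 fold change over the 36 genes was −0.06, beside −0.01 over all genes tested. In 4 of the 36 genes the groups did not overlap, 2 in each direction, where 14.8% of all genes did not (7.38% higher and 7.4% lower).

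Dhdds, the catalytic partner of NgBR, did not follow Nus1. Its level was 22.8, 23.3, 19.4 and 21.1 CPM in WT liver and 21.1, 25.5, 22.0 and 22.7 CPM in N-LKO liver under HFD. The groups overlapped (log2 fold change 0.08, SE 0.10, edgeR adjusted p = 0.693). The ratio of Nus1 to Dhdds per kb was therefore 3.17 ± 0.176 in WT liver and 1.20 ± 0.188 in N-LKO liver (SD, n = 4 each). Under WD it was 3.10 ± 0.166 in WT liver, 1.56 ± 0.0512 in N-LKO liver and 1.57 ± 0.146 in tumors (SD, n = 3 each). The ratios repeat the Nus1 difference and were not tested separately.

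**Figure D2:**
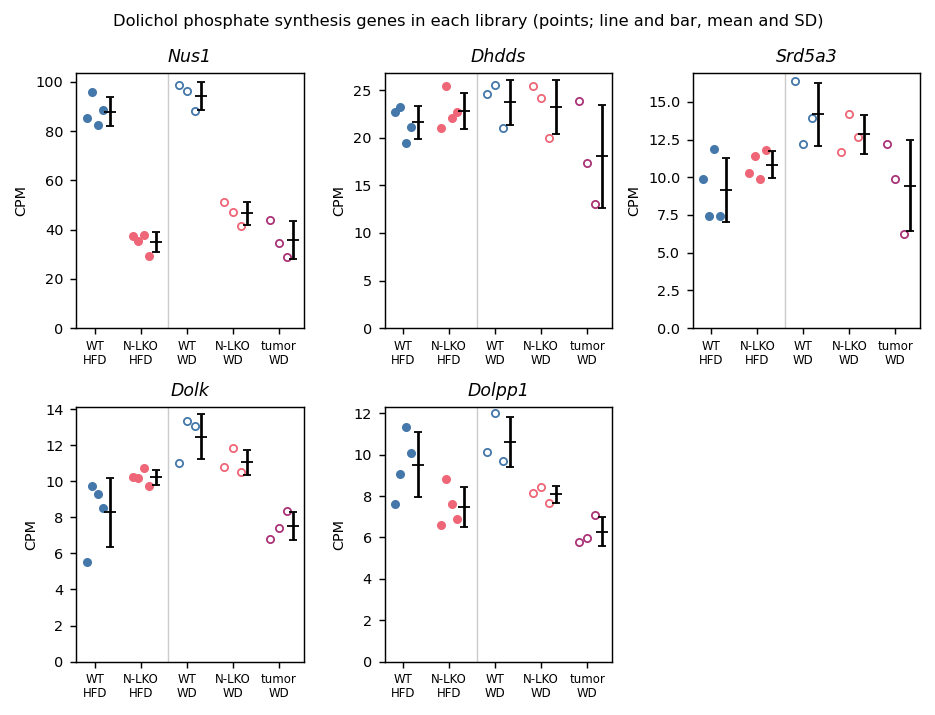
CPM of the 5 dolichol phosphate synthesis genes in each library, by group, with the mean and SD beside the points and filled points for HFD. Nus1 is lower in every N-LKO liver and tumor than in every WT liver of its diet, Dhdds overlaps between groups, and Dolk and Dolpp1 are lower in the 3 tumors than in the 6 WD livers.

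Among the other dolichol genes under HFD, Dolk, dolichol kinase, was 5.51, 9.73, 9.32 and 8.54 CPM in WT liver and 10.3, 10.2, 10.7 and 9.74 CPM in N-LKO liver. Every N-LKO value lay above every WT value, by less than 0.01 CPM at the nearest pair, and the log2 fold change of 0.30 (SE 0.16) did not pass (edgeR adjusted p = 0.297). Srd5a3, a reductase of dolichol synthesis, had a log2 fold change of 0.25 and Dolpp1, dolichyl diphosphate phosphatase, a value of −0.35, and neither passed (edgeR adjusted p = 0.385 and 0.212).

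Of the 12 genes that build the glycan on dolichol, from Dpagt1 to Alg10b, none passed under HFD in edgeR, and 1 had an unadjusted p under 0.05. Alg11, which adds the last cytosolic mannoses, came nearest, with a log2 fold change of −0.39 and groups that did not overlap (SE 0.10, edgeR adjusted p = 0.0542). It passed with DESeq2 (adjusted p = 0.0357). Of the 11 OST subunits 9 had negative fold changes, where 49.15% of all genes had positive ones. The fold changes of the 11 lay between −0.50 and 0.18, with 0 past the test in edgeR and 0 at an unadjusted p under 0.05. Tmem258, a small OST subunit, had the lowest of these, at 5.61, 9.16, 6.66 and 5.18 CPM in WT liver and 4.88, 5.35, 5.86 and 2.87 CPM in N-LKO liver. These groups overlapped, and the difference did not pass (log2 fold change −0.50, SE 0.24, edgeR adjusted p = 0.245).

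Uggt1, the glucosyltransferase that senses misfolded glycoproteins, had the largest difference after Nus1. Its level was 48.9, 88.5, 62.7 and 64.6 CPM in WT liver and 39.4, 45.1, 49.3 and 48.5 CPM in N-LKO liver under HFD. WT replicate 1 lay within the N-LKO range, and the difference did not pass (log2 fold change −0.54, SE 0.15, edgeR adjusted p = 0.0661). It passed without WT replicate 1 (adjusted p = 0.0235) and with DESeq2 (0.0249) and in none of the other 13 alternatives, 7 of them fits that left out another library, where the adjusted p reached 0.156. Without WT replicate 2, the highest library, the value was −0.37. Ganab, which removes glucose from the glycan, had a log2 fold change of −0.26 (SE 0.09, edgeR adjusted p = 0.103) and Mogs, glucosidase I, a value of −0.07.

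Of the 5 dolichol-linked sugar donor genes 4 had positive fold changes under HFD, where 49.15% of all genes did. In edgeR 0 passed, and 2 were higher at an unadjusted p under 0.05. Dpm1, the catalytic subunit of dolichol-phosphate mannose synthase, was 31.6, 33.4, 33.3 and 33.9 CPM in WT liver and 42.7, 37.3, 38.5 and 43.3 CPM in N-LKO liver. The groups did not overlap (log2 fold change 0.29, SE 0.08, edgeR adjusted p = 0.0631). Mpdu1 had a log2 fold change of 0.25 (SE 0.10, edgeR adjusted p = 0.182), with overlapping groups.

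Neighbouring steps of glycoprotein handling, taken from lists that were chosen with earlier results known, held 6 genes that passed under HFD, all lower in N-LKO liver, where 4.84% of all genes passed (2.29% lower). In the list of ER lectins, folding and disposal factors, 2 of 11 passed and were lower. They were Edem3, a mannosidase-like factor of glycoprotein disposal (49.9 ± 7.05 CPM in WT and 33.8 ± 1.42 in N-LKO liver, SD, n = 4 each, edgeR adjusted p = 0.0156), and Lman1, a cargo lectin that carries glycoproteins out of the ER (200.4 to 235.6 and 159.9 to 171.3 CPM, edgeR adjusted p = 0.0183). Among 12 other users of dolichol-linked mannose, 2 passed and were lower. They were Dpy19l3, a C-mannosyltransferase (12.8 ± 2.52 and 6.54 ± 1.36 CPM, edgeR adjusted p = 0.0176), and Tmtc2, an O-mannosyltransferase (10.6 ± 1.02 and 7.60 ± 0.639 CPM, edgeR adjusted p = 0.0488). In Golgi processing 1 of 12 passed, Mgat2, which starts the second antenna of complex glycans (33.6 ± 3.21 and 25.4 ± 1.57 CPM, edgeR adjusted p = 0.0358). The remaining gene was Slc35a3, a Golgi UDP-GlcNAc transporter (81.3 ± 2.86 and 58.6 ± 7.60 CPM, edgeR adjusted p = 0.0221), 1 of 3 other N-glycan genes. Of 10 nucleotide sugar genes none passed in edgeR, and 3 were lower at an unadjusted p under 0.05. Cell type markers moved beside these genes, with summed macrophage markers of 135 to 208 CPM in WT and 81.9 to 159 CPM in N-LKO liver, 2 of 7 macrophage markers and 1 of 6 endothelial markers lower and 1 of 2 cholangiocyte markers tested higher in N-LKO liver, and their part in the result was not tested.

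Under WD, Nus1 was again lower in N-LKO liver. Its level was 98.8, 96.2 and 88.1 CPM in WT liver and 51.1, 47.2 and 41.6 CPM in N-LKO liver, with no overlap. The log2 fold change of −1.02 (SE 0.16) had an unadjusted p of 8.56e-05 and did not pass after adjustment over 17829 genes (edgeR adjusted p = 0.151). It passed with DESeq2 (log2 fold change −1.03, adjusted p = 2.47e-05) and in edgeR with the tumors left out of the fit (−1.01, adjusted p = 0.0307). None of the 17829 genes passed in this comparison in edgeR (0%), nor did any of the 36, and 12.4% of all genes reached an unadjusted p under 0.05 (7.1% higher and 5.31% lower). In DESeq2 100 genes passed, 1 of them in the pathway.

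At that unadjusted level 3 of the 36 genes were lower under WD and 0 higher in edgeR, namely Nus1, Dolpp1 and Dpm1. Dolpp1 was 10.2, 11.996 and 9.71 CPM in WT liver and 8.16, 8.44 and 7.65 CPM in N-LKO liver. The groups did not overlap (log2 fold change −0.39, SE 0.16, edgeR adjusted p = 0.386). Dhdds was 24.6, 25.6 and 21.03 CPM in WT liver and 25.5, 24.2 and 20.03 CPM in N-LKO liver, and the groups overlapped across nearly their whole range (log2 fold change −0.03, SE 0.21, edgeR adjusted p = 0.961). The median log2 fold change over the 36 genes was −0.14, beside 0.01 over all genes tested. Of the 36, 27 were negative, where 51.43% of all genes were positive. In 6 of the 36 genes the groups did not overlap, 1 higher and 5 lower, where 27.9% of all genes did not (14.3% higher and 13.6% lower). The summed level of all 36 genes was 1442 ± 144 CPM in WT and 1276 ± 125 in N-LKO liver (SD, n = 3 each). Hepatocyte markers were also lower in point estimate, with all 7 negative, 0 past the test in edgeR (2 at an unadjusted p under 0.05) and a median log2 fold change of −0.53, and their part in the result was not tested.

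The genotype effect was compared between the diets in a fit of all 14 livers. Each diet had its own table and range of library sizes, so a difference between diets cannot be told apart from one between tables. Dpm1 was the only one of the 36 genes whose effect differed, and 1.62% of all 15850 genes did (0.587% higher and 1.03% lower). Before adjustment 4 of the 36 had a p under 0.05, 1 higher and 3 lower, where 20% of all genes had one (9.18% higher and 10.8% lower). Dpm1 was 19.1, 18.7 and 16.3 CPM in WT liver and 15.3, 11.7 and 14.8 CPM in N-LKO liver under WD. Every N-LKO value lay below every WT value there, the opposite of the HFD livers. Neither within-diet difference passed (0.29 under HFD and −0.37 under WD), and the difference between them was −0.64 on the log2 scale (SE 0.14, edgeR adjusted p = 0.0388). The call was lost with a length and GC offset, with the replicate number as a block and without each of 11 of the 14 livers in turn, while the value stayed between −0.92 and −0.53. With the offset 1 gene of all 15850 passed, and with the block 0. Dpm1 lies within Gm20716, a longer gene model on the same strand, and its counts held fractions in all 17 libraries, so its level is uncertain. Gm20716 itself had a log2 fold change of −0.11 under HFD and 0.08 under WD in N-LKO against WT liver, and neither passed (edgeR adjusted p = 0.533 and 0.796). The Nus1 effect did not differ detectably between diets (difference 0.34, SE 0.14, edgeR adjusted p = 0.199), nor did that of Dhdds (−0.08, SE 0.15, edgeR adjusted p = 0.805). The next largest differences were those of Tmem258 (0.59, SE 0.32, edgeR adjusted p = 0.326) and of the OST subunit Dad1 (−0.49, SE 0.17, edgeR adjusted p = 0.137).

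**Figure D3:**
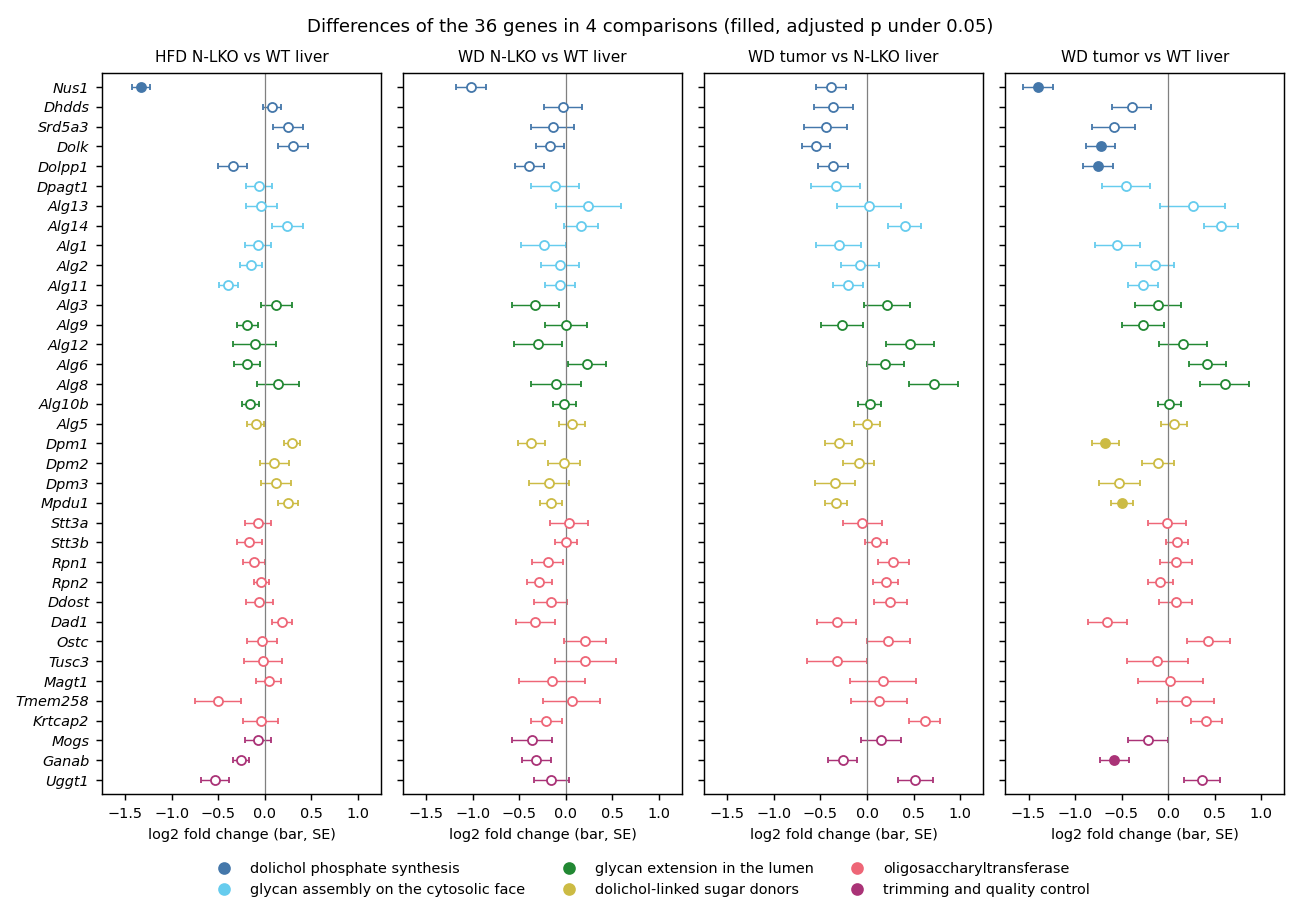
Log2 fold change with its SE for each of the 36 genes, grouped and coloured by role, in the 4 comparisons named above the panels. Filled points passed an adjusted p of 0.05 in edgeR. They are Nus1 under HFD, and Nus1, Dolk, Dolpp1, Dpm1, Mpdu1 and Ganab in tumor against WT liver.

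Tumors were compared with WT liver and with N-LKO liver. Both comparisons use the same 3 tumor libraries, and the WD comparisons also share their liver groups, so their values are given side by side and not as separate evidence. Against WT liver, 6 of the 36 genes were lower and 0 higher in tumors. Among all 17829 genes tested 14.9% passed, 6.8% lower and 8.08% higher. The 6 were Nus1, Dolk, Dolpp1, Dpm1, Mpdu1 and Ganab. They included 3 of the 5 dolichol phosphate synthesis genes, with the deleted gene Nus1 among them, and 2 of the 5 sugar donor genes. They included 0 of the 11 OST subunits or 12 assembly and extension genes. Whether this split by role differs from the background was not tested. Before adjustment 12 of the 36 had a p under 0.05, 3 higher and 9 lower, where 32.5% of all genes had one (17.5% higher and 15.1% lower). With and without adjustment, the share of the 36 that differed in either direction was near the background, and the lower share was above it. Each of these counts of lower genes includes Nus1, whose lower level was set by its deletion. Without WT liver WD replicate 2, Nus1 alone of the 36 passed, as given below. In 10 of the 36 the groups did not overlap, 2 higher and 8 lower, where 34.1% of all genes did not (17.7% higher and 16.4% lower). The median over the 36 genes was −0.11, beside 0.04 over all genes tested.

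Nus1 was 43.9, 34.4 and 28.9 CPM in the tumors, 0.379-fold the WT level (log2 fold change −1.40, SE 0.16, edgeR adjusted p = 0.00433). All 3 tumors lay below all WT livers, and tumor replicate 1 lay within the range of the N-LKO livers. Against N-LKO liver the log2 fold change was −0.38 (SE 0.16, edgeR adjusted p = 0.245), so a lower level in tumor than in N-LKO liver was not established. The tumor RNA is not restricted to hepatocytes, and cells that keep Nus1 contribute to it in an unknown share.

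Dolk was 11.0, 13.4 and 13.0 CPM in WT liver, 10.8, 11.9 and 10.52 CPM in N-LKO liver and 6.83, 7.41 and 8.38 CPM in tumors. The tumors lay below all 6 livers. The log2 fold change was −0.73 against WT liver (SE 0.15, edgeR adjusted p = 0.0168) and −0.55 against N-LKO liver (SE 0.15, edgeR adjusted p = 0.112). Against N-LKO liver Dolk passed with DESeq2 (adjusted p = 0.0424). Dolk shares its locus with Gm28038 on the opposite strand.

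Dolpp1 was 5.77, 5.99 and 7.08 CPM in tumors, again below all 6 WD livers. Against WT liver the log2 fold change was −0.76 (SE 0.16, edgeR adjusted p = 0.0176), and against N-LKO liver it was −0.36 (SE 0.16, edgeR adjusted p = 0.263). Its opposite-strand neighbour Crat overlaps it, with a log2 fold change of −0.69 against WT liver that did not pass (edgeR adjusted p = 0.0966). Whether the counting used strand is not given in the sources used here, so reads of the neighbours cannot be told apart. The same limit holds for Mpdu1, Krtcap2 and Tmem258, among others of the 36. Opposite-strand protein-coding genes (Sox15, Trim46 and Fen1) overlap them. Srd5a3 and Dhdds completed the group with values of −0.58 (SE 0.23, edgeR adjusted p = 0.112) and −0.39 (SE 0.21, edgeR adjusted p = 0.221) that did not pass. Dhdds was 23.8, 17.3 and 13.1 CPM in tumors, overlapping both liver groups through tumor replicate 1. The summed level of the 5 genes was 155 ± 8.30 CPM in WT liver, 101.9 ± 8.16 in N-LKO liver and 77.1 ± 14.5 in tumors (SD, n = 3 each). Of these sums Nus1 itself gave 94.4, 46.6 and 35.8 CPM, so they mostly repeat the targeted gene between WT and N-LKO liver.

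Among the sugar donor genes, Dpm1 was 11.4, 10.9 and 11.5 CPM in tumors, a narrow range below all 6 WD livers. Against WT liver the log2 fold change was −0.68 (SE 0.15, edgeR adjusted p = 0.0185), with the same uncertainty over reads shared with Gm20716. The call was lost without WT replicate 1 or 2 (edgeR adjusted p = 0.0571 and 0.0640). Mpdu1 was 42.9, 42.8 and 41.2 CPM in WT liver, 35.1, 35.1 and 43.2 CPM in N-LKO liver and 30.4, 31.2 and 28.3 CPM in tumors. All 3 tumors were below all 6 livers, with log2 fold changes of −0.50 against WT liver (SE 0.12, edgeR adjusted p = 0.0266) and −0.33 against N-LKO liver (SE 0.12, edgeR adjusted p = 0.191). Its call against WT liver held in 11 of 17 alternatives and was lost in 4 of the 9 fits that left out a library, with the replicate block and with only the 2 groups (values −0.56 to −0.46). Dpm3, which anchors Dpm1 in the membrane, had a value of −0.52 against WT liver that did not pass (SE 0.22, edgeR adjusted p = 0.126).

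Ganab was 144, 190 and 134 CPM in WT liver, 135, 125.97 and 115 CPM in N-LKO liver and 110, 105 and 97.9 CPM in tumors. The tumors lay below all 6 livers. The log2 fold change was −0.58 against WT liver (SE 0.16, edgeR adjusted p = 0.0351) and −0.26 against N-LKO liver (SE 0.16, edgeR adjusted p = 0.398). The call against WT liver held in 9 of 17 alternatives and was lost in 7 of the 9 fits that left out a library, with values of −0.69 to −0.42 and an adjusted p of up to 0.111.

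**Figure D4:**
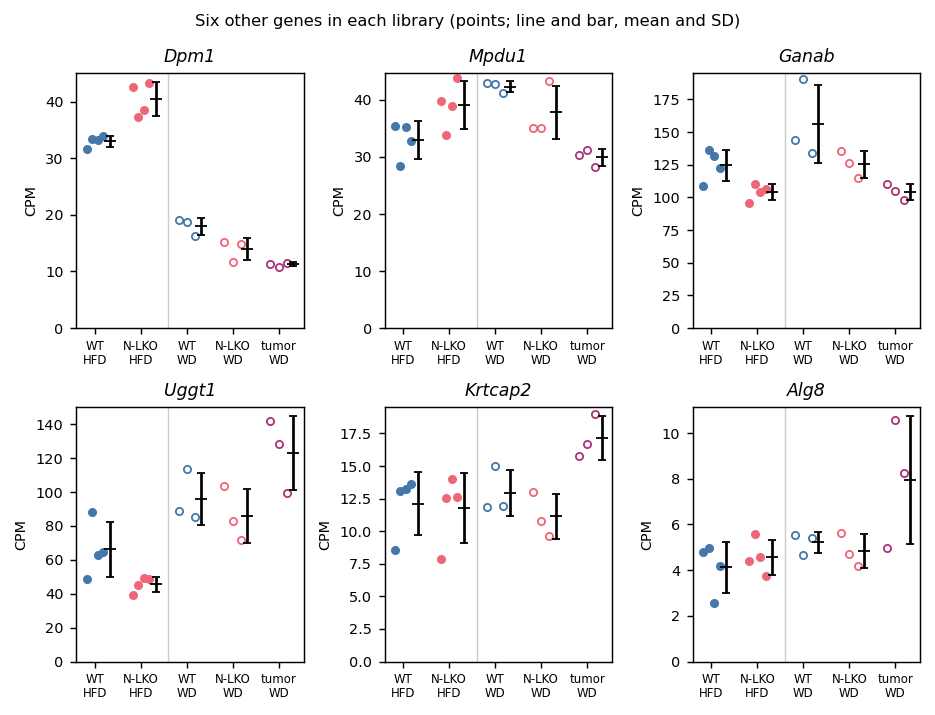
CPM of Dpm1, Mpdu1, Ganab, Uggt1, Krtcap2 and Alg8 in each library, by group, with the mean and SD beside the points and filled points for HFD. Dpm1, Mpdu1 and Ganab are lowest in the 3 tumors among the WD libraries, Krtcap2 is highest there, and Alg8 and Uggt1 tumors overlap with livers.

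The other lumenal and OST genes showed values on both sides of 0 in tumors. Krtcap2, an OST subunit, was 11.9, 14.98 and 11.9 CPM in WT liver, 13.0, 10.8 and 9.62 CPM in N-LKO liver and 15.8, 16.7 and 19.0 CPM in tumors. The tumors lay above all 6 livers, and neither difference passed (0.62 against N-LKO liver, SE 0.17, edgeR adjusted p = 0.105, and 0.41 against WT liver, SE 0.17, edgeR adjusted p = 0.117). Against N-LKO liver Krtcap2 passed with DESeq2 (adjusted p = 0.0346). Alg8, which adds the second glucose, was 5.56, 4.68 and 5.42 CPM in WT liver, 5.62, 4.69 and 4.20 CPM in N-LKO liver and 4.97, 10.6 and 8.27 CPM in tumors. Tumor replicate 1 lay within the liver range and the other two tumors above it (log2 fold change 0.72 against N-LKO liver, SE 0.26, edgeR adjusted p = 0.197). Uggt1 was 142, 128.4 and 99.2 CPM in tumors and 103, 82.9 and 71.8 CPM in N-LKO liver, with overlap (log2 fold change 0.52, SE 0.19, edgeR adjusted p = 0.194). Alg14, whose product anchors Alg13 to the ER, had a value of 0.57 against WT liver that did not pass (SE 0.18, edgeR adjusted p = 0.0578).

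The remaining OST subunits and assembly genes did not pass in any comparison in edgeR. The summed level of the 11 OST subunits under HFD was 597 ± 83.1 CPM in WT liver and, in N-LKO liver, 574 ± 53.8 CPM (SD, n = 4 each). Under WD it was 681 ± 63.0 CPM in WT liver, 631 ± 85.2 in N-LKO liver and 694.3 ± 114.2 in tumors (SD, n = 3 each), and the ranges of the groups overlapped. Stt3a was 87.2, 83.2 and 80.2 CPM in WT liver, 96.2, 83.5 and 77.03 CPM in N-LKO liver and 113, 73.2 and 61.4 CPM in tumors, where its spread was widest. Stt3b was steadier, at 136, 149.1 and 134 CPM in WT liver, 151, 131 and 137.6 CPM in N-LKO liver and 155, 148 and 144 CPM in tumors. Dad1, a small subunit needed for OST stability, was 30.5, 40.7 and 29.1 CPM in WT liver and 27.7, 15.6 and 20.4 CPM in tumors. Its groups did not overlap, and the log2 fold change of −0.65 did not pass (SE 0.21, edgeR adjusted p = 0.0617), although it passed with DESeq2 (adjusted p = 0.0261). The summed level of the 6 cytosolic assembly genes was 94.5 ± 8.91 and 85.4 ± 4.42 CPM in WT and N-LKO liver under HFD, and 110 ± 9.39, 106 ± 3.51 and 99.2 ± 9.32 CPM in WT liver, N-LKO liver and tumors under WD. For the 6 lumenal extension genes the sums were 79.7 ± 7.59 and 73.1 ± 1.09 CPM under HFD, and 111.7 ± 7.59, 109.5 ± 7.35 and 116.3 ± 12.2 CPM under WD. These sums were not tested.

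Against N-LKO liver 0 of the 36 genes passed in edgeR, where 0.499% of all genes did (0.437% higher and 0.0617% lower). Before adjustment 4 were higher and 4 lower at a p under 0.05, where 18.3% of all genes had one (10.1% higher and 8.19% lower). The groups did not overlap in 7 of the 36, 1 higher and 6 lower, where 23.1% of all genes did not (11.5% higher and 11.6% lower). DESeq2 called 2, Dolk lower and Krtcap2 higher, of 1021 genes in all. The median over the 36 genes was −0.03. The 5 dolichol phosphate synthesis genes and the 5 sugar donor genes all had negative values, 8 of the 11 OST subunits had positive ones, and none of these was a passing result. Of all genes tested 51.74% had positive values.

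Single libraries weighed on the tumor counts. Without tumor replicate 1, 13 of the 36 genes passed against WT liver, 2 of them higher, and 4 passed against N-LKO liver, beside 20.9% and 12% of all genes. Against N-LKO liver these were Nus1, Alg14, Alg8 and Krtcap2, with Nus1 at −0.56 (edgeR adjusted p = 0.0351). Without WT liver WD replicate 2, 1 of the 36 passed against WT liver, Nus1, beside 3.07% of all genes. Without WT replicate 1 there were 3, beside 6.58% of all genes. Nus1 passed against WT liver without each library in turn. Dolk and Dolpp1 were lost only without WT replicate 2 (edgeR adjusted p = 0.0619 and 0.0641) among the libraries left out, and also when N-LKO livers were left out of the fit (adjusted p = 0.0588 and 0.0608).

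In the same lists around the pathway, tumors differed from WT liver in 6 genes, where 14.9% of all genes passed (6.8% lower and 8.08% higher), so nothing particular to these lists is shown. In edgeR 2 of 10 nucleotide sugar genes and 2 of 12 users of dolichol-linked mannose were lower, and 1 of 11 ER factors and 1 of 13 Golgi genes were higher. Mgat5, which adds the branch that forms large complex glycans, was 29.8 ± 0.857 CPM in WT liver and 59.1 ± 17.6 in tumors and was higher (SD, n = 3 each, edgeR adjusted p = 0.0150). Uggt2, a relative of Uggt1, was 3.02 ± 0.666 and 8.30 ± 4.23 CPM and was also higher (edgeR adjusted p = 0.0285). Lower in tumors were Pmm1, a phosphomannomutase (5.42 ± 0.247 and 1.23 ± 0.991 CPM, edgeR adjusted p = 0.0201), Gnpnat1, of UDP-GlcNAc synthesis (64.7 ± 6.01 and 40.6 ± 10.2 CPM, edgeR adjusted p = 0.0304), and the C-mannosyltransferases Dpy19l1 (72.5 ± 12.7 and 42.2 ± 9.68 CPM, edgeR adjusted p = 0.0246) and Dpy19l3 (12.4 ± 0.623 and 5.62 ± 2.68 CPM, edgeR adjusted p = 0.0370). Dpy19l3 was thus lower in N-LKO liver under HFD and in tumors under WD. Tmtc3, an O-mannosyltransferase, differed in its genotype effect between diets (0.78, SE 0.17, edgeR adjusted p = 0.0323), with 9.75 ± 1.33 CPM in WT and 7.07 ± 0.514 in N-LKO liver under HFD and 17.3 ± 1.20 and 21.1 ± 1.26 under WD. That call was lost with the length and GC offset, where 1 gene of 15850 passed, and with the replicate block, where 0 did. In tumor against WT liver, 2 of 7 hepatocyte markers were lower with all 7 negative, 2 of 5 cholangiocyte markers were higher, and of the 6 endothelial markers 2 were higher and 1 lower. Of 7 macrophage markers 2 were lower, of 7 stellate and fibroblast markers 1 was lower, and of 5 lymphocyte markers 1 was higher with all 5 positive. Among all genes tested 53.23% were positive. The part of cell composition in the values of the 36 genes was not tested.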

How the data were processed

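The authors deposited estimated counts per gene (expected counts that need not be whole), in an HFD and a WD table, from rRNA-depleted, single-end Illumina libraries. The methods name TopHat2, whereas the submitters' processing notes name STAR, Partek and mm9. Gene starts and stops equalled GENCODE M21 (GRCm38) for 96.8% (HFD) and 96.4% (WD) of genes, and that annotation was used. Of all values, over genes and libraries, 74.9% (HFD) and 72.9% (WD) were whole within 0.01. Counts were rounded, filtered with filterByExpr and TMM-scaled, and tested with edgeR 4.0.16 quasi-likelihood fits, 1 per table plus 1 of the 14 livers for the diet comparison, with Benjamini-Hochberg adjustment over all genes at 0.05. All 36 genes passed the filter in each fit. CPM per kb used the joined length of all annotated exons of a gene, so ranks and ratios between genes depend on that annotation. Alternatives used DESeq2 1.42.0, limma 3.58.1 voom, other filters, a length and GC offset (mgcv 1.9.3), the replicate block, fewer groups and left-out libraries. Scripts were tested on simulated data. The genes, lists and tests were chosen with earlier results of these data known. Named genes were Nus1, Dhdds, every gene past the test (up to 8 a comparison) and the 3 largest differences of each comparison, with any other of the 36 named where a sentence needed it. The labels call the samples biological replicates. No pair of replicates agreed within counting noise (chi-square per degree of freedom 8.74 to 116 over 21 pairs).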

Additional observations from a re-analysis of the deposited data

Results flagged for a closer look

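In 2 of 72 groups of 4 examined, a library stood apart from the other 3, and chance flags about 1 in 20 groups. Krtcap2 was 8.53 CPM in WT liver HFD replicate 1 and 13.1 to 13.6 CPM in the other 3. Alg9 was 13.4 CPM in WT liver HFD replicate 2 and 11.1 to 11.4 CPM in the other 3. The genotype effect on Dpm1 differed between the diets, by −0.64 on the log2 scale (edgeR adjusted p = 0.0388), and the locus is shared with Gm20716.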

How the results depend on the processing

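Counts of the 36 genes past the threshold moved with the test and the libraries. Under HFD 1 became 3 with DESeq2 and 2 with the length and GC offset, where 7.43% and 2.25% of all genes passed. Without each library the count was 1 to 3, beside 1.31% to 4.35% of all genes. It was 3 without WT replicate 1, adding Alg11 and Uggt1 (4.35% of all genes). It was also 3 without N-LKO replicate 2, adding Alg11 and Dpm1 (4.26% of all genes). For WD N-LKO against WT liver, 0 became 1 with DESeq2 and 1 with only the 2 groups, the gene being Nus1 (−1.03 and −1.01). In these settings 0.561% and 0.0356% of all genes passed. The count stayed 0 without each library, where at most 0.00549% of all genes passed. For tumor against N-LKO liver, 0 became 2 with DESeq2 (5.73% of all genes), and 0 to 4 without each library (0.0164% to 12% of all genes). Without each library the Nus1 value ranged from −0.56 to −0.25. For tumor against WT liver, 6 became 2 with only the 2 groups, and 1 to 13 without each library, while the share of all genes went from 14.9% to 4.12% and to between 3.07% and 20.9%. The median there was −0.24 with the length and GC offset against −0.11, and that of all genes −0.07 against 0.04. The difference between diets went from 1 to 0 with that offset and with the replicate block, as all calls went from 257 to 1 and to 0 (Dpm1 itself −0.92 and −0.64). It was 0 to 1 without each library, beside 0.137% to 2.04% of all genes. Dhdds changed sign near 0 without single WD livers, to 0.024 and 0.065 for WD N-LKO against WT liver (range over left-out libraries −0.11 to 0.065) and to 0.013 for the diets (range −0.16 to 0.013). The causes were not tested. Nus1 under HFD and in tumor against WT liver passed under every alternative run. Replicate numbers are shared between groups. Deviations from the group mean of samples with the same number had correlations of −0.15 to 0.15 (13 pairs, 3 over 0.1, 7 closest to their own number). Such weak correlations cannot exclude pairing, so whether the numbers pair any samples is not known. With the replicate block 1, 0, 0, 5 and 0 of the 36 genes passed in the order above. Of all genes 3.67%, 0%, 0.202%, 10.4% and 0% passed there. With 3 or 4 samples a group, differences under the spread of these genes were not detectable.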
